A study of Mus musculus with 2 samples.

Results

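RNA was measured in cells of the left–right organizer (LRO), also called the node, the small pit at the midline of the mouse embryo in which motile cilia drive a leftward flow, and in cells from outside it. This report describes 10 genes (Gm572, Odf3b, Pifo, Lrrc23, Efcab10, Meig1, Ankfn1, 1700007K13Rik, 1110017D15Rik and 1700007G11Rik) of the 17586 genes in the table. They were found by gene symbol and had been picked because the LRO library held many of their reads and the non-LRO library none. The 10 symbols covered 19 of the 27606 RefSeq transcripts. Both groups came from FOXJ1-EGFP embryos on a C57BL/6 x 129 SvEv background. The labels give embryonic day 8 with 0 to 4 somites, and the study's methods put the harvest for the sort slightly later on that day. In this line the FOXJ1 promoter drives the green fluorescent protein, so the sort follows the activity of the transgene and not the cilium itself. The LRO group was a pool of GFP-positive cells and the non-LRO group a pool of GFP-negative cells from other embryos. The LRO pool held fewer cells and gave far less RNA. Each group gave 1 library, so the spread between replicates is not known and the conditions were compared without a test.

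A motile cilium is built on a ring of microtubule doublets. Dynein arms on the doublets bend the cilium, radial spokes set the beat, and microtubule inner proteins line the inside of each doublet. In most ciliated tissues FOXJ1 and the RFX factors switch on the genes for these parts, and RFX factors bind a paired motif called the X-box. Many of the same proteins build the sperm tail, so several ciliary genes were first described in the testis. Among the 10 genes, Lrrc23 encodes a radial spoke component, 1700007K13Rik (synonym Rbest47, known as Pierce1) a microtubule inner protein that is needed for left–right asymmetry in mice, and Pifo (pitchfork) a protein of cilia in the mouse node. Meig1 acts in sperm tail formation, and 1110017D15Rik (synonyms Cbe1 and Smrp1) was described in ciliated airway cells and in the spermatid manchette, a microtubule sleeve. Odf3b is related to a gene of the outer dense fibres of the sperm tail, and 1700007G11Rik carries the name Cfap299, a cilia- and flagella-associated gene. Efcab10 encodes an EF-hand protein. Ankfn1 is the gene of the mouse nmf9 mutant, which has disturbed balance. Gm572 corresponds to the human gene CIROZ, which is known from left–right patterning and not as a structural part of the cilium, so the label ciliary rests on its cells rather than on its protein.

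The promoters of 8 of the 10 genes, from 250 bases before to 50 bases after a transcription start, were found among RefSeq sequences of the GRCm38.p6 build, in 12 promoters as some genes have several starts. Those of Ankfn1 and 1700007G11Rik were not. Of these, 4 are shown as examples with a match to the RFX core site GTTGCC. Those of Pifo, 1110017D15Rik and Lrrc23 also hold a paired site, and Gm572 had the most reads. Efcab10, not shown, also held the core site. They are written 5′ to 3′ on the strand of the gene, with capitals for GTTGCC on either strand and for X-box-like pairs, spelled here as GTNNCC, then 0 to 3 bases, then NGNAAC. A core site can lie inside a pair, and a pair can be read on both strands.
Pifo, chr3:106001448-106001747, minus strand: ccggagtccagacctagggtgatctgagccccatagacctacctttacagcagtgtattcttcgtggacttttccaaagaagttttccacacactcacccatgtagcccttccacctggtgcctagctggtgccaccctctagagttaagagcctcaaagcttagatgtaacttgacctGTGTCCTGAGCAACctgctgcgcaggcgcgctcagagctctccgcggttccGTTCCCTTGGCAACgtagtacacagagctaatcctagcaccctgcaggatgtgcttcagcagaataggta
1110017D15Rik, chr4:41507715-41508014, minus strand: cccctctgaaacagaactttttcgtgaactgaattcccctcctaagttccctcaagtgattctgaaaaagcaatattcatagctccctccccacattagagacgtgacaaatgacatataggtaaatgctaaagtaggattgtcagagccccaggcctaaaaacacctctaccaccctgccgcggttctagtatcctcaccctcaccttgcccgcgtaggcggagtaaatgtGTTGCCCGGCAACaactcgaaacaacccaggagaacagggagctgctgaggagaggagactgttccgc
Lrrc23, chr6:124779678-124779977, minus strand: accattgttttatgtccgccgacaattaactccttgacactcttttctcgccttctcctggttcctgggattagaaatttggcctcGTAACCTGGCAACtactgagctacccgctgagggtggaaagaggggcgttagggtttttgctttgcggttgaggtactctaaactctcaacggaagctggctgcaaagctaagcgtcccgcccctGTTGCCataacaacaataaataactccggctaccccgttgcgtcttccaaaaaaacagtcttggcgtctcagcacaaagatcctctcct
Gm572, chr4:148643067-148643366, plus strand: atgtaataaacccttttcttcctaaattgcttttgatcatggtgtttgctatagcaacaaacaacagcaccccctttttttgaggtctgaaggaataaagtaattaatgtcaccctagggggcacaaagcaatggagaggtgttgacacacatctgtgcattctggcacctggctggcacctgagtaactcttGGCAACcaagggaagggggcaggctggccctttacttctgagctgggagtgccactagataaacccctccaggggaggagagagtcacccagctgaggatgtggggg
The pair of 1110017D15Rik, GTTGCCCGGCAAC, began 18 bases before the start and joins 2 core sites. That of Pifo nearest to the start, GTTCCCTTGGCAAC, began 20 bases before it, and another began 71 bases before it. The pair of Lrrc23 began 164 bases before the start and a separate core site 39 bases before it. Gm572 held a core site, read on the opposite strand, that began 57 bases before its start.

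RPKM values scale reads to transcript length and library size. The library totals behind them were 30277870 reads (LRO) and 24407299 reads (non-LRO), of which 16672852 and 13418798 were assigned to transcripts. At this depth 3 reads, the limit that a count of 0 allows, make up 9.91e-06% of the larger library, LRO, and 1.23e-05% of the other. Calls rest on the 95% interval of the LRO to non-LRO ratio. An interval wholly above 2 made a gene higher, and one wholly below 0.5 made it lower. Intervals are exact, cover counting error alone and can be too narrow, because amplified reads are not independent molecules. By this rule 699 of 17586 genes (3.97%) were higher and 2167 (12.3%) lower. The median log2 ratio of all genes, with a pseudocount of 1 read, was -0.42.

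Across the 10 genes the LRO library held 1050 reads and the non-LRO library 1. All 10 were called higher, against 3.97% of all genes, and since they were picked for this contrast nothing is read from that count. Gm572 had 333 LRO reads and 0 non-LRO reads, Ankfn1 151 and 0, and Odf3b 146 and 0. Pifo had 113 and 0, Lrrc23 78 and 0, and Efcab10 77 and 0. Among the genes with 0 non-LRO reads, the lowest LRO counts were 60 for 1700007K13Rik, 28 for 1700007G11Rik and 24 for Meig1. By the choice of the genes the LRO library was the higher one in every case, with a span from 24 to 333 LRO reads. In a pool, fewer cells with a transcript and less of it per cell cannot be told apart.

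The label of absence outside the LRO did not hold for 1110017D15Rik. It had 40 LRO reads and 1 non-LRO read, a ratio of 32.2 (95% interval 5.46 to 1305). The other 9 genes had 0 non-LRO reads on every transcript. What a 0 can show depends on the LRO count. At an equal level the non-LRO library would have held 268 reads of Gm572 and 122 of Ankfn1, but 22.6 of 1700007G11Rik and 19.3 of Meig1. Against the floor of 3 reads in the non-LRO library, Gm572 was 89.5-fold higher, Ankfn1 40.6-fold, 1700007K13Rik 16.1-fold and Meig1 6.45-fold. These folds leave out the counting error of the LRO reads. The 95% intervals of the ratios, which include it, began lower, at 72.4, 32.6, 12.7 and 4.85 in the same order. By the floor alone, a count of 0 left room for a non-LRO level of 15.5% of the LRO level for Meig1 and 1.12% for Gm572. These shares leave out the counting error of the LRO reads too, so by the intervals the non-LRO level could be higher still.

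**Figure D1:**
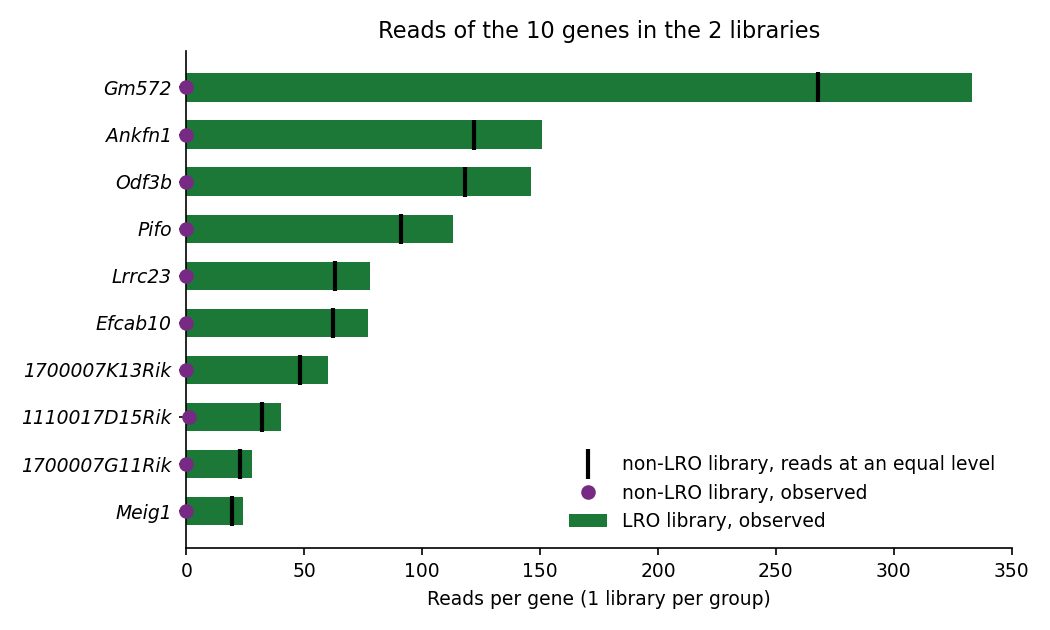
Reads of the 10 genes in the LRO library (bars) and the non-LRO library (points), with black ticks at the reads that the non-LRO library would hold at an equal level. Bars run from 24 reads (Meig1) to 333 (Gm572), while the points lie at 0 except for 1 read of 1110017D15Rik.

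Per length of transcript, the order of the genes changed. Levels are given for the leading transcript in the LRO library, with the exact 95% counting interval of its reads. Gm572 was highest at 7.94 RPKM (7.11 to 8.84), above the interval of every other gene of the 10. Odf3b followed at 4.64 (3.91 to 5.45), Pifo at 4.11 (3.39 to 4.94) and Efcab10 at 3.77 (2.97 to 4.71), whose intervals overlapped. 1700007K13Rik was at 2.46 (1.88 to 3.17), Lrrc23 at 1.78 (1.41 to 2.23) and 1110017D15Rik at 1.78 (1.27 to 2.44). Meig1 at 1.12 (0.719 to 1.67), 1700007G11Rik at 1.07 (0.714 to 1.55) and Ankfn1 at 0.996 (0.839 to 1.17) came last. From Odf3b downwards the interval of each gene overlapped that of the next in this order. Overlap alone does not place a step within counting error, and single steps were not tested. Ankfn1, second by reads, was last by RPKM because its transcript is 4923 bases long, while Efcab10 reached 3.77 RPKM from 77 reads on 675 bases.

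These are moderate levels. The median over the 10 leading transcripts was 2.12 RPKM, beside 1.88 over all genes with an LRO read and 1.20 over the 699 higher genes. Ranked by summed RPKM in the LRO library, the 10 genes lay between percentile 45.5 (Ankfn1) and 80.2 (Gm572) of all genes. Foxj1, whose promoter drives the reporter and which therefore checks the sort, was at 2.49 RPKM with 194 against 4 reads. Noto, the homeobox regulator of the node, was at 6.33 RPKM. The 3 reads of the floor correspond in the non-LRO library to 0.0887 RPKM for Gm572 and to 0.182 RPKM for the short Efcab10, so the limit is less strict for short transcripts.

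**Figure D2:**
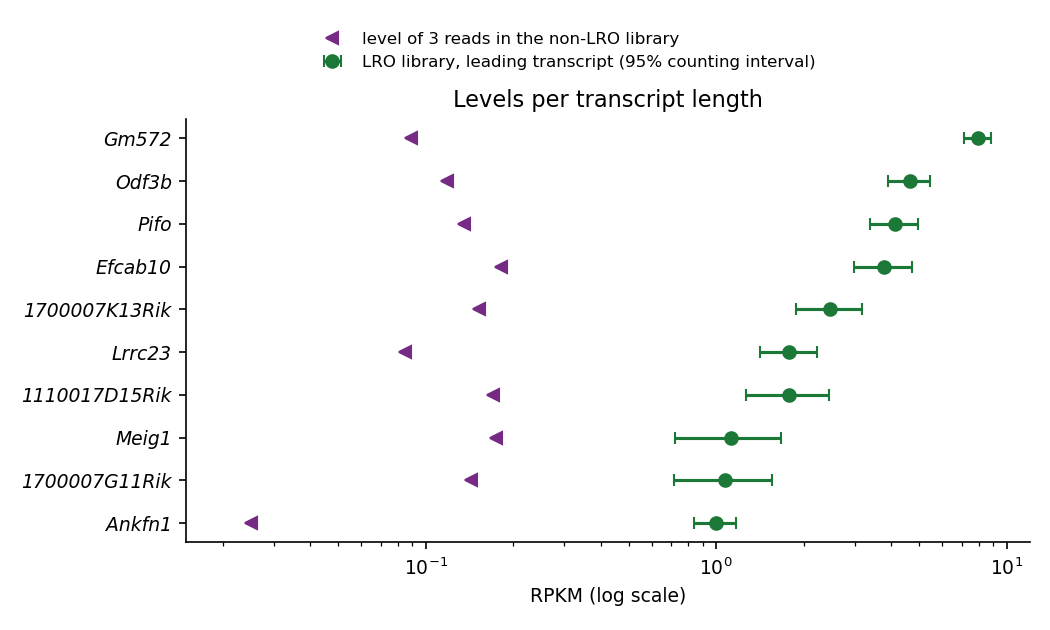
Level of the leading transcript in the LRO library (points, bars are 95% counting intervals) and the level that 3 reads would give in the non-LRO library (triangles), in RPKM on a log axis. Gm572 stands above the others at 7.94 RPKM, and Ankfn1 is lowest at 0.996 RPKM with the lowest limit, 0.025 RPKM.

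Short transcripts were common among the 10 genes. Their leading transcripts had a median length of 884 bases, beside 2646 over all genes and 2818 over the higher genes. Of the 10, 6 were under 1000 bases, as were 11.3% of all genes and 10.4% of the higher genes. Ankfn1 was by far the longest with 4923 bases, followed by Lrrc23 with 1444 and Gm572 with 1385. Exon counts of the matching GENCODE transcripts ran from 3 for Meig1 and 1700007K13Rik over 11 for Gm572 to 17 for Ankfn1.

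For 7 genes the table held 1 transcript, and for Pifo, Ankfn1 and 1110017D15Rik the reads fell almost wholly on 1 of several. Of the Pifo transcripts, NM_029604 took 113 reads and NM_001200028, which starts farther upstream, took 0.0117. For Ankfn1 the long NM_001327810 took 148 and the short NM_172534 took 2.60. For 1110017D15Rik there were 8 transcripts with 2 starts. The 4 from the inner start, led by NM_028624 with 38.7 reads, had 40 LRO reads and 0 non-LRO reads. The 4 from the outer start had 0 LRO reads and the 1 non-LRO read, on NM_001253788. With the reads split by start, no non-LRO read was thus assigned to the transcripts that the LRO library used. Shared reads were divided between transcripts by the authors' estimate, and 1 read does not show that the outer start was used.

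The promoters printed above lie at these starts. NM_029604 of Pifo, matched through GENCODE, begins 0 bases from the start of the promoter with the pairs, and the promoter of its upstream start held neither motif. For 1110017D15Rik the promoter with the pair lies at the inner start. Its inner and outer starts were 9569 bases apart in the deposited table and also between the RefSeq promoters. NM_028624 itself had no GENCODE match, and of the other inner-start transcripts NR_045551 began 10 bases away and NM_001253778 began 3703 bases away. The promoter of the outer start held neither motif. Over the 8 genes with a promoter, 5 held GTTGCC on either strand, beside 14.1% of all 27025 genes with promoters, and 4 held an X-box-like pair, beside 5.94%. By promoter these were 5 of 12 beside 12.5% of 32851, and 4 of 12 beside 5.25%. The genes with GTTGCC were Gm572, Pifo, Lrrc23, Efcab10 and 1110017D15Rik. Those with a pair were Pifo, Lrrc23, 1110017D15Rik and Meig1. The pair of Meig1 lay 37 bases after 1 of its 3 starts, which was not that of the transcript with reads. The forkhead motif TGTTTAC was in 0 of 12 promoters, beside 3.65% of all. With 12 promoters, a count of 0 does not stand apart from that share. CCAAT, searched on both strands like the rest, was in 1 of 12, beside 37.4%. A match is only a run of letters, and no binding was measured.

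In the coordinates of the deposited table, which are of an older build than GRCm38, 20 genes flanked the 10 at distances from 92 to 285606 bases. Of these 1 was higher, 2 were lower and 17 were neither, with a median log2 ratio of -0.26. With 3.97% of all genes higher and 12.3% lower, these counts are near the background. The higher one was Nog, a BMP antagonist of node and notochord, 87662 bases from Ankfn1, with 372 against 28 reads and a ratio of 10.7 (7.29 to 16.3). Ankfn1 lay on chromosome 11 at 89251537 to 89558251.

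Odf3b lay on chromosome 15 at 89207880 to 89209686, and Tymp, a thymidine phosphorylase gene 410 bases away on the same strand, had 0 LRO reads and 27 non-LRO reads. Lrrc23 lay on chromosome 6 at 124719887 to 124729746, and Eno2, a neuronal enolase gene 194 bases away on the same strand, had 1 and 19. Both were called lower, opposite in direction to the gene beside them, and neither call held under a filter of 50 reads summed over the libraries. Efcab10 lay on chromosome 12 at 34079719 to 34086135, and Atxn7l1os2, head to head with it at 92 bases, had 0 and 1 reads, too few to compare. Fam219aos, head to head with 1110017D15Rik at 102 bases, had 1 and 9, a ratio of 0.0896 (0.00204 to 0.646). In all, 7 of the 20 flanking genes were head to head with 1 of the 10, among them Mrps2, a mitochondrial ribosomal gene 1740 bases from 1700007K13Rik, with 1016 against 1007 reads. Dclre1c, a DNA repair gene 1481 bases from Meig1, had 728 against 805. Gm572 on chromosome 4 at 148017426 to 148045682 had Tardbp, an RNA-binding protein gene, 16319 bases away with 5425 against 7577. Acbd7 near Meig1, with 15 against 1 reads, was called higher with TMM factors (a scaling that centres the ratios of most genes). Mir703, which lies within the span of 1700007G11Rik on the opposite strand, had 37 against 15 reads. The kit keeps no strand, so strand cannot separate reads of these genes. Whether Mir703 overlaps an exon of 1700007G11Rik was not examined. The 0 non-LRO reads of 1700007G11Rik therefore rest on the authors' assignment.

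**Figure D3:**
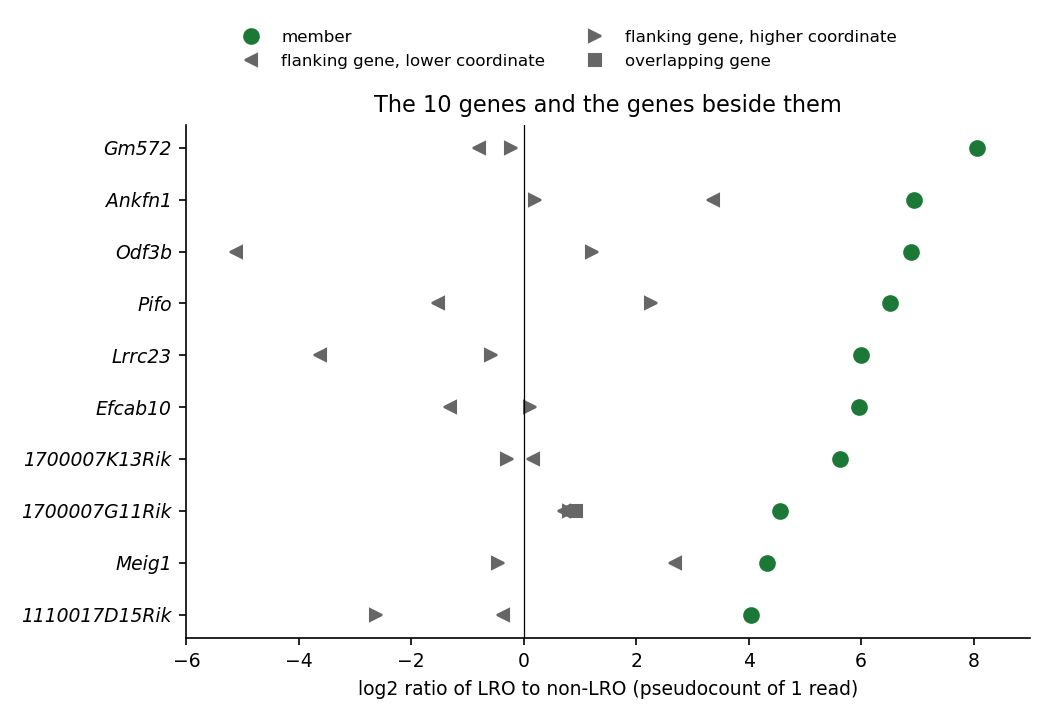
log2 ratio of LRO to non-LRO reads (pseudocount of 1 read) for the 10 genes (green) and the genes beside them (grey triangles point to lower or higher coordinates, the square is an overlapping gene). The 10 genes were picked to lie on the right, and the flanking genes range from -5.12 (Tymp) to 3.37 (Nog) around a median of -0.26.

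The 10 genes were taken from a wider set. With at least the 24 LRO reads of Meig1, 54 genes (0.307% of all genes, and 0.459% of the 11756 genes with that many LRO reads) had 0 non-LRO reads. Of these, 9 were of the 10 described here and 45 were others. The 5 others with the most LRO reads were Noto with 307, the axonemal gene Ccdc108 (Cfap65) with 182, Cfap206 of the radial spokes with 103, the retroviral gene Erv3 with 90 and the adenylate kinase gene Ak7 with 88. Just below the lowest of the 10, Idi2 had 23 LRO reads and Tff3 22, each against 0. A further 86 genes (0.732% of the 11756) had as many LRO reads and 1 to 3 non-LRO reads, and 85 of them were called higher. Cfap126 (225 against 2), Acta1, a skeletal muscle actin (248 against 3), and Barhl2, a homeobox gene (179 against 2), were among the 5 with the most LRO reads. A step from 0 to a few non-LRO reads thus moved the set from 54 to 140 genes.

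Genes of like pattern were taken as those with 0 non-LRO reads and a leading transcript within the range of the 10 in the LRO library, 0.996 to 7.94 RPKM. There were 20 of them. Noto was highest at 6.33 RPKM, and the ciliary genes Cfap206 at 1.98, Ccdc108 at 1.05 and Drc1, of the nexin link, at 1.04 were in the range too. Others were Tmsb15b2 at 3.68, Defa22 at 2.73 and H2-DMb1 at 1.52, which are a thymosin, a defensin and an antigen-presentation gene. Close copies of Defa22 and Tmsb15b2 exist, so the assignment of their reads is uncertain. Others were small RNA genes, of which Mir678 had the most reads, 11 on 84 bases, and Mir7080, Mir568 and Mir328 the fewest, 3 each. At 3 or 4 LRO reads a count of 0 in the non-LRO library shows no difference.

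**Figure D4:**
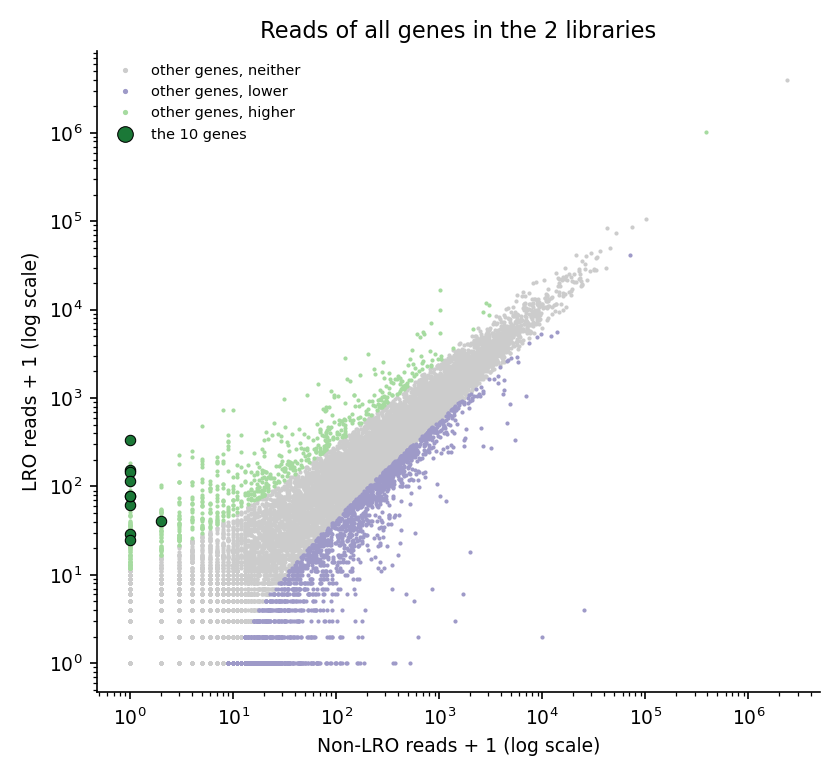
Reads plus 1 of each gene in the non-LRO library (x axis) and the LRO library (y axis), both on log axes. Of the 10 genes 9 lie at the left edge, at 0 non-LRO reads, and 1110017D15Rik lies at 1 read.

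Genes that belong with the 10 by role were counted by the same rule. Each count stands beside 3.97% of all genes higher and 12.3% lower. Of 16 radial spoke genes in the table, the group of Lrrc23, 9 were higher, 0 lower and 7 neither, with a median log2 ratio of 2.38 beside -0.42 over all genes. Cfap206 had 103 against 0 reads. Rsph1, a spoke head gene, had 104 against 3 and a ratio of 27.9 (9.30 to 138), and Rsph4a, another, 133 against 6. Rsph9 (14 against 5) and Rsph3b (290 against 121, near-identical to Rsph3a, so that their reads may be split) did not pass. The call of Iqub ended with a 99% interval, and Ropn1l was higher with TMM factors. With a fold bound of 4, 6 were higher, and with reads divided by 10 only 1.

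Of 22 microtubule inner protein genes, the group of 1700007K13Rik, 9 were higher, 0 lower and 13 neither, with a median of 2.23, or 1.55 with genes at 0 set to the floor. Fam183b (97 against 1 reads) and Cfap126 were nearest to the 10 genes in pattern. Tekt1, a tektin, had 83 against 12 and a ratio of 5.58 (3.03 to 11.2). Mns1, which is needed for left–right asymmetry in mice, had 729 against 571 and did not pass. The calls of Cfap45, Spag8 and Enkur ended with a 99% interval. With TMM factors 11 were higher, with a fold bound of 4 or a filter of 50 reads 3, and with reads divided by 10 only 1.

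Relatives of the other genes went several ways. Of the other ODF3 family genes listed, Odf3l2 was in the table, with 0 against 2 reads, beside 146 against 0 for Odf3b. Of 11 other Efcab genes, 1 was higher (Efcab5, 19 against 0 reads), 1 lower (Efcab7, 22 against 114) and 9 neither, with a median of -0.78, or -0.35 with values under 3 reads set to that floor. Of 8 genes listed for the manchette and the sperm tail, Iqcg was higher (139 against 39), Ccdc42 was lower (0 against 8) and 6 were neither, with a median of 1.03. The call of Iqcg ended with scaling to assigned reads and that of Ccdc42 with TMM factors. In the Efcab and manchette lists, 1 call each way does not stand apart from 3.97% of all genes higher and 12.3% lower.

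Genes of the sperm itself were at few reads. Of 21 sperm-specific genes listed, 7 were in the table, 0 of them higher, Catsper2 lower (0 against 15 reads) and 6 neither. Their median log2 ratio was -1.90, or -0.31 with values under 3 reads set to that floor. The second value is only the ratio of the library totals, as the median gene then stood at the floor in both libraries. They summed to 18 LRO reads and 47 non-LRO reads, and Gapdhs had the most in the LRO library, 15. Of 5 genes of the programme of multiciliated cells, Ccno was higher with 29 against 0 reads and Myb was lower with 20 against 67, a call that ended with TMM factors. Mcidas, a master regulator of that programme, had 2 against 1 reads. With so few genes, the calls of these lists do not stand apart from 3.97% of all genes higher and 12.3% lower.

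Among left–right genes of the organizer, the company of Gm572, 4 of 6 were higher, beside 3.97% of all genes. Mmp21, a secreted protease whose loss disturbs left–right asymmetry, had 68 against 6 reads and a ratio of 9.14 (3.99 to 25.8). Dand5 had 332 against 19. With a fold bound of 4 only 1 of them, Dand5, stayed higher, and with reads divided by 10 the call of Mmp21 ended. Pkd2 was lower, a call that ended with TMM factors, and Gdf1 (245 against 103) did not pass. Of 7 regulators of motile cilium genes Noto, Foxj1 and Rfx3 were higher and 4 were neither, with a median of -0.41. Of the RFX factors, Rfx3 had 2742 against 1028 reads and Rfx2 27 against 47. The call of Rfx3 ended with scaling to assigned reads.

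**Figure D5:**
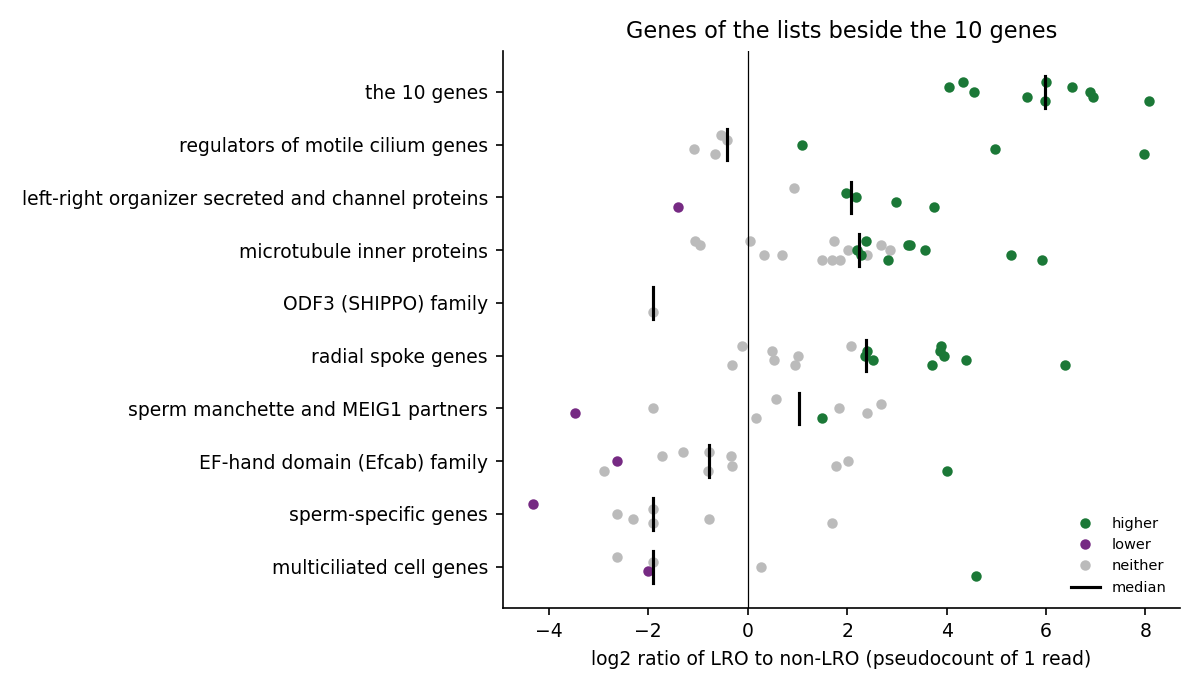
log2 ratio of LRO to non-LRO reads (pseudocount of 1 read) of the genes in each list, coloured by the size rule, with the list median as a black bar. The 10 genes have a median of 5.98 by their choice, or 4.38 with values under 3 reads set to that floor. Radial spoke genes have 2.38 and microtubule inner proteins 2.23. The sperm-specific genes have -1.90 from few reads, or -0.31 with the floor, a value set by the library totals alone.

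The LRO library was higher in the markers of its label, but also in markers of other cell types, beside 3.97% of all genes higher and 12.3% lower. All 8 LRO and axial mesoderm markers were higher (6734 against 1135 reads summed). Cardiac and pharyngeal markers were higher for 4 of 6 (2698 against 795 reads) and neural crest markers for 3 of 3 (1279 against 22). Ratios of the LRO markers ran from 3.39 (T) to 65.5 (Shh), apart from Noto with 0 non-LRO reads. Those of the neural crest markers ran from 27.8 (Tfap2b) to 84.4 (Sox10), and of the cardiac and pharyngeal ones from 1.62 (Isl1) to 24.6 (Nkx2-5). Erythroid markers were lower for 6 of 6 (40 against 35823 reads, with Gata1 and Klf1 among those at 0 LRO reads), and so were endothelium markers for 4 of 4 (889 against 2665, Pecam1 at 0). Extraembryonic endoderm markers were lower for 5 of 6 (646 against 2293, with Afp, Apoa2 and Apoc1 at 0) and allantois markers for 3 of 3 (18 against 2197, Hoxa11 at 0). With TMM factors 5 cardiac markers were higher and 3 endothelium markers lower. None of 5 ectoderm markers was called by the size rule, and 2 of 7 presomitic markers were lower. The part of these cell types in the values of the 10 genes was not tested.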

How the data were processed

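The authors' notes name TopHat and Partek 6.6 for the processing of both libraries. They deposited estimated counts, which are reads per RefSeq transcript, divided where transcripts of a gene share them. The RPKM values were also calculated by the authors. The kit amplified cDNA and kept no strand. Columns with chi-square and p-values of the authors' own comparison, and 4 columns of junction and incompatible RPKM, with many unfilled cells, were not used, so a planned description of junction reads was not made. The LRO column carried no label. It was assigned as the only other library of the table, whose reads the study lists under GFP-positive cells. The labels name mm10, but positions on chromosome 1 reach 197002910, so those of the table belong to an older build.

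Reads were summed per symbol and rounded. Ratios were scaled to the library totals behind RPKM, with exact conditional binomial 95% intervals (scipy 1.17.1). The size rule was also run on simulated reads that were drawn independently. These held no amplified copies and no spread between replicates, so they do not show how the rule performs on these libraries. Alternatives were other scalings (assigned reads, TMM from edgeR 4.0.16, the median ratio over genes with 50 or more reads in each), a 99% interval, a fold bound of 4, reads divided by 10, a filter of 50 reads, and transcripts in place of sums. Promoters are RefSeq sequences of GRCm38.p6, and starts were matched by accession through GENCODE M21. The 10 genes, the lists and the rules were chosen with earlier results of these data known. Named were the 10 genes, their flanking genes, the leading genes of each list and the genes nearest in reads, and other list members were chosen after their values were seen.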

Additional observations from a re-analysis of the deposited data

How the results depend on the processing

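All 10 genes kept their call when ratios were scaled to assigned reads, with TMM factors or by the median ratio, with a 99% interval and with a fold bound of 4. With at least 50 reads over both libraries, Meig1, 1110017D15Rik and 1700007G11Rik dropped out. With reads divided by 10, which stands for amplified copies of fewer molecules, 4 of the 10 stayed higher (Gm572, Ankfn1, Odf3b and Pifo), and Meig1 and 1700007G11Rik had no fold because both libraries were then at or under the floor. How many molecules the reads stand for was not tested. A count of 0 in 1 library limits the non-LRO level but does not show absence.

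TMM factors moved all log2 ratios by 0.35 and the share of higher genes among calls from 24.4% to 45.0%. Genes called higher numbered 1134 with TMM factors, 1056 with the median ratio, 155 at reads divided by 10, 246 under a bound of 4 and 1410 over transcripts. Genes called lower numbered 1388, 1443, 293, 680 and 3834, and 1343 with at least 50 reads. Of the genes in the cilium and organizer lists, with the cell type marker lists left out, 28 were higher and 5 lower. Over all genes 3.97% were higher and 12.3% lower. Dividing the reads by 10 left 7 higher and 0 lower, and a fold bound of 4 left 13 and 2. The lower ones numbered 2 with TMM factors and 3 both with the median ratio and with at least 50 reads. The 54 genes at 0 non-LRO reads became 140 with up to 3 non-LRO reads and 137 over transcripts. A stricter bound or filter, fewer reads and more units tested change counts by their construction. For the scalings the cause was not tested. No paired analysis was possible because there was only 1 library on each side.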
